A study of Rattus norvegicus with 2 samples.

Results

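The perilipins and fatty-acid switch genes are 9 of the 32662 genes in a deposited table of gene levels from rat retina. They were taken by gene symbol, and the list was proposed with the CTRL and IR12 values of this table known, so the members were selected on the measured values that are described here and they are given as a description. The study sequenced RNA from 2 retinas of Long-Evans rats aged 2 months to look for circular RNAs whose share differs after ischemia. CTRL is 1 library from a retina that went through a sham procedure, and IR12 is 1 library from a retina taken 12 hours after blood flow returned following ischemia-reperfusion (IR) injury. Whether the 2 retinas came from the same animal or from different animals is not given in the sources. The genotype of both is given only as Long-Evans rat, with no altered gene and no drug named, and the study's methods state female animals. Ribosomal RNA was removed before sequencing. The study's supplement names a stranded total RNA kit, which keeps RNAs with and without a poly(A) tail. The design text of the deposited series names a stranded mRNA kit, and which kit was used is not settled.

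Cells store surplus fatty acids as triglyceride in lipid droplets, and perilipins are the proteins that coat these droplets and control access of lipases to them. Fatty acids that are not stored are carried into mitochondria by the carnitine shuttle and oxidised. Pyruvate dehydrogenase kinases inhibit pyruvate dehydrogenase and so limit the oxidation of glucose carbon in mitochondria. The retina is known for its high demand for fuel and uses both glucose and fatty acids. Peroxisome proliferator-activated receptors (PPARs) are known regulators of most of the 9 genes, and *Plin2*, *Angptl4* and *Hilpda* are also known to respond to low oxygen in other tissues.

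Gene levels were read as FPKM (fragments per unit of transcript length and of mapped fragments), a scale on which genes of different length can be compared. Changes were computed as the log2 ratio of (FPKM + 1), IR12 over CTRL, which understates the change of genes with low levels. With 1 library per group there is no replicate error for any value or ratio, and in bulk retina fewer cells of a type cannot be told apart from less RNA per cell. The tissue label was checked against rod photoreceptor genes, and all 10 of them were at high levels in both libraries. The most abundant rod gene, *Gngt1*, had 12096 FPKM in CTRL and 8644 FPKM in IR12. Of the 10 rod genes, 0 were past 2-fold in either direction as deposited.

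FPKM holds no read counts, but the lowest values move in steps of whole reads. Where several genes share a locus length, the smallest FPKM that recurs gives the worth of whole reads, and in CTRL it was 1.71 times that in IR12 at 17 of 25 lengths, with ratios equal to 3 decimals. If both values are then the same number of reads, the same FPKM rests on 1.71 times as many reads in IR12. The study reports more reads for IR12 than for CTRL, but by a smaller factor. The 1.71 is thus a ratio on the deposited FPKM scale and not one of total reads. Of the 32662 genes, 13562 were listed at 0 in both libraries, and these include genes that all cells use, such as *Hprt1*, *Rps6* and all 37 mitochondrial genes. A listed 0 was therefore not read as absence.

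Of the 9 members, 4 had an FPKM of at least 1 in either library: *Plin2*, *Angptl4*, *Hilpda* and *Cpt1a*. *Plin2* and *Angptl4* passed 2-fold upward in IR12, and 0 members passed it downward, while on the scale of equal sums below 3 passed it upward and 0 downward. With a pseudocount of 0.1 there were 3 upward and 1 downward, the latter *Pdk4*, which lies under an FPKM of 1 in both libraries. Over the 13599 genes with an FPKM of at least 1 in either library, 892 (6.56%) were at least 2-fold higher and 832 (6.12%) at least 2-fold lower, and nothing is read from the members' count against these shares because the contrast chose the members. On a scale that brings both columns to 1 sum (TPM scale), 2817 genes were higher and 436 lower by this rule, since small non-coding RNAs took 67.9% of the FPKM sum in CTRL and 46.2% in IR12. That scale moved the median log2 ratio of all genes expressed in both libraries by 0.58, from 0.03 as deposited, and the scale without small non-coding RNAs moved it by -0.09.

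**Figure D1:**
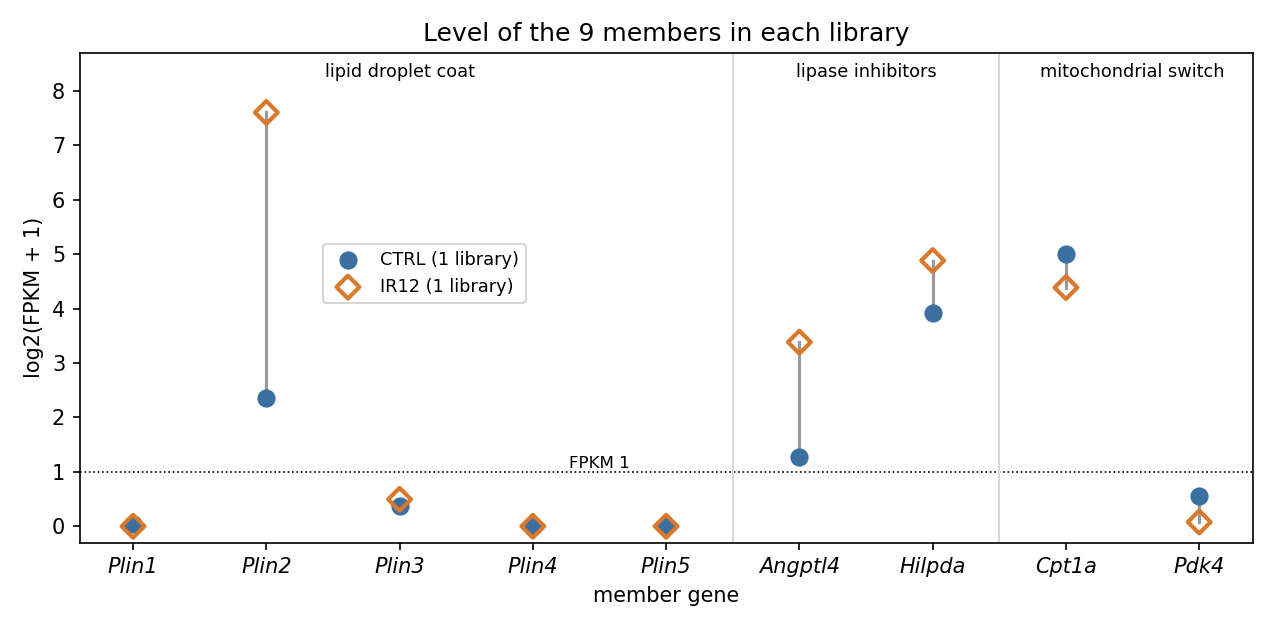
Level of each of the 9 members as log2(FPKM + 1) in CTRL (filled circles) and IR12 (open diamonds), 1 library each, grouped by role, with a dotted line at an FPKM of 1. *Plin2* stands apart, from an FPKM of 4.11 in CTRL to 194 in IR12, while *Plin1*, *Plin3*, *Plin4*, *Plin5* and *Pdk4* lie under the line in both libraries.

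The promoters of the 4 members above the minimum are shown because 3 of them were higher in IR12 and 1 was lower. RefSeq has a promoter window for all 9 members, from 250 bases before to 50 after a gene start on GRCr8, a later rat build than the rn6 of the gene table. The capitals mark ACGTG or GCGTG on either strand, the core to which hypoxia-inducible factors (HIFs) are known to bind, and either form is present in 41.6% of all 33469 windows. The *Plin2* window is chr5:106228969-106229268 on the minus strand, that of *Angptl4* is chr7:15258632-15258931 on the minus strand, that of *Hilpda* is chr4:58836213-58836512 on the plus strand and that of *Cpt1a* is chr1:209995910-209996209 on the plus strand.
Plin2: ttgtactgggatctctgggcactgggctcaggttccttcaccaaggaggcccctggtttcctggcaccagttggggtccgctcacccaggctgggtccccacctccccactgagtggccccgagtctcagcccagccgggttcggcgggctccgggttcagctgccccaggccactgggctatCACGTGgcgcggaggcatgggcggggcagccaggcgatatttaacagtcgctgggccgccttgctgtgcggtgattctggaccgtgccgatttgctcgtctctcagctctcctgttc
Angptl4: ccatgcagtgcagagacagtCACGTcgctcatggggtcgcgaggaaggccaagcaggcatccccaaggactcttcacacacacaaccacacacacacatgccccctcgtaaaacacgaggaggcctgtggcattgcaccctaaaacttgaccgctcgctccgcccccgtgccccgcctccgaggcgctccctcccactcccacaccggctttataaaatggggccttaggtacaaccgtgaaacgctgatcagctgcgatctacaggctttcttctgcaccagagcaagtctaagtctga
Hilpda: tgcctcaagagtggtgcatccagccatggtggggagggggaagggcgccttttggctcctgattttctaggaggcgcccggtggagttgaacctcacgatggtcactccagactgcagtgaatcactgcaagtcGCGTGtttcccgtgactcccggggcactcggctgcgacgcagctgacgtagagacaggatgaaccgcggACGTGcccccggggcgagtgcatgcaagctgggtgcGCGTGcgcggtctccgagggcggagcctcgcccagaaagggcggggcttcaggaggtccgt
Cpt1a: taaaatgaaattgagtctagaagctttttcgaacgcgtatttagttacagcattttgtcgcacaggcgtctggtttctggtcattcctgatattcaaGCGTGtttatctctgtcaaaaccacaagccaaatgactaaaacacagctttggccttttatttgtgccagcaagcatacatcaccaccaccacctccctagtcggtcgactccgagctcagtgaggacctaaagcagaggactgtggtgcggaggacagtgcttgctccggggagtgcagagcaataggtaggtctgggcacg

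In the *Plin2* window, ACGTG on both strands overlaps in the palindrome CACGTG, which starts 67 bases before the gene start. The second *Plin2* window listed by RefSeq, chr5:106228488-106228787, holds neither core. *Angptl4* has a core 230 bases before its start, *Hilpda* has 3, at 116, 47 and 11 bases before its start, and *Cpt1a* has 1, at 153 bases. Of the other members, *Plin5* has 1 core and the windows of *Plin1*, *Plin3*, *Plin4* and *Pdk4* hold neither. ACGTG alone is in 19.3% and GCGTG in 29.7% of all windows. AGGTCA, the unit that PPARs and related receptors bind in pairs, is in 16.2% of all windows and among the members was found only in that of *Plin5*. AGAACA, part of the sequence bound by the glucocorticoid receptor, is in 20.7% of all windows and was found only in 1 of the 5 windows of *Plin4*. TGASTCA (S being C or G), bound by AP-1 factors, is in 4.63% of all windows and among the members was found only at 1 site shared by 4 overlapping windows of *Plin4*. These matches describe the letters of the windows and show no binding.

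Among the coat proteins, *Plin2* encodes the perilipin found on droplets of most cell types, a protein that is known to be degraded when it is not bound to a droplet. *Plin2* (rn6, chr5:104984414-105010857) had 4.11 FPKM in CTRL and 193.9 FPKM in IR12, 47.2 times as high. Its log2 ratio of 5.25 ranked 14 from the top of the 13599 genes. On the 4 other scales the ratio was between 5.16 and 5.79. Its level stood at percentile 25.5 of these genes in CTRL and at percentile 97.0 in IR12, which places it among the less abundant genes in CTRL and near the top in IR12. Nearest genes were sought among named genes only, without small non-coding RNAs. The gene nearest to *Plin2* in the pair of log2(FPKM + 1) values over the 2 libraries was *Timp1*, an inhibitor of metalloproteinases. *Timp1* had 4.71 FPKM in CTRL and 169 FPKM in IR12, at a distance of 0.26 on the log2 scale.

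The other 4 perilipins were below an FPKM of 1 in both libraries. *Plin1*, which coats the large droplet of fat cells, had an FPKM of 0.024 in CTRL and was listed at 0 in IR12. *Plin3*, a perilipin of the cytosol that moves onto new droplets, had 0.29 FPKM in CTRL and 0.41 FPKM in IR12, a log2 ratio of 0.13. The smallest whole read numbers that give these values at a relative depth of 1.71, within 0.001%, are 5 reads in CTRL and 12 in IR12. The ratio of FPKM was then 1.41, with an exact 95% interval of 0.46 to 5.09 that covers counting error only. A multiple of these read numbers gives the same ratio with a narrower interval. *Plin4*, known from fat and muscle, and *Plin5*, which joins droplets to mitochondria in oxidative tissues, were listed at 0 in both libraries.

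*Plin3*, *Plin5* and *Plin4* lie within 197 kb of each other (rn6, chr9:10773901-10971277), and the interval lists 15 genes. Of these 15 genes, 4 had an FPKM of at least 1 in either library, namely *Fem1a*, *Dpp9*, *Mydgf* and *Sema6b*. *Mydgf* had the highest level, with 10.1 FPKM in CTRL and 14.7 FPKM in IR12, a log2 ratio of 0.51. Directly beside *Plin5*, *Lrg1*, an acute-phase glycoprotein gene, was listed at 0 in CTRL and had an FPKM of 0.59 in IR12. None of the 15 genes was past 2-fold as deposited, and *Plin2* lies on another chromosome. For *Lrg1*, with a log2 ratio of 0.67 from a listed 0, this rests on the pseudocount of 1.

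The lipase inhibitors act on the fatty acids that reach or leave the droplet. *Angptl4* encodes a secreted inhibitor of lipoprotein lipase, the enzyme that frees fatty acids from blood triglyceride. *Angptl4* (rn6, chr7:18627808-18634079) had 1.42 FPKM in CTRL and 9.45 FPKM in IR12, 6.63 times as high. Its log2 ratio was 2.11, rank 240 of the 13599 genes, and between 2.03 and 2.65 on the 4 other scales. Its level stood at percentile 8.81 of these genes in CTRL and at percentile 42.3 in IR12. The nearest gene by the pair of values was *Mvp*, the major vault protein gene, with 1.64 FPKM in CTRL and 9.61 FPKM in IR12 at a distance of 0.13.

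*Hilpda* encodes a small protein that inhibits adipose triglyceride lipase, the enzyme that starts the breakdown of stored triglyceride. Its listed locus (rn6, chr4:56549739-56549993) is 255 bp long, so the value speaks for this short stretch. It had 14.2 FPKM in CTRL and 28.5 FPKM in IR12, 2.01 times as high. With the pseudocount the log2 ratio was 0.96, just under 2-fold as deposited, while it was 1.0003 with a pseudocount of 0.1 and 1.56 on the TPM scale, both past 2-fold. From the lowest repeated FPKM among the 7 genes of this locus length, 0.595 in IR12, which 2 of them share, the values of *Hilpda* equal 14 reads in CTRL and 48 reads in IR12 if that lowest FPKM is 1 read, and multiples of these otherwise, with a narrower interval. Its FPKM ratio of 2.01 has an exact 95% interval of 1.09 to 3.94 from these reads, which covers counting error only and no variation between animals. The nearest gene was *Stat2*, a signal transducer of interferon receptors, with 14.1 FPKM in CTRL and 28.0 FPKM in IR12 at a distance of 0.03. For *Plin2*, *Angptl4* and *Cpt1a* no pair of whole read numbers up to 100 matched, so the reads behind these values were not recovered.

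**Figure D2:**
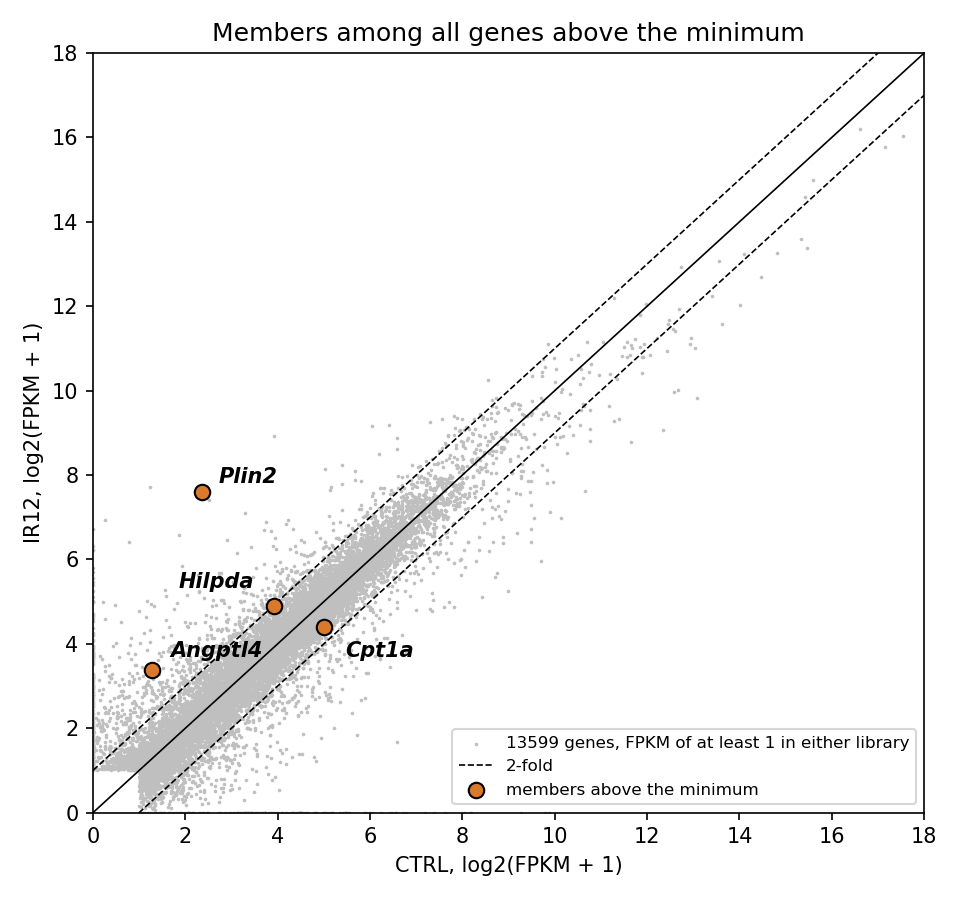
Each of the 13599 genes with an FPKM of at least 1 in either library as log2(FPKM + 1) in CTRL (x axis) and IR12 (y axis), with equality as a solid line and 2-fold as dashed lines. *Plin2* and *Angptl4* lie above the upper dashed line, *Hilpda* at 14.2 and 28.5 lies on its inner edge, and *Cpt1a* lies between the solid and the lower dashed line.

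Both mitochondrial genes of the list were within 2-fold as deposited. *Cpt1a* encodes the carnitine palmitoyltransferase that controls the entry of long-chain fatty acids into mitochondria. *Cpt1a* (rn6, chr1:218569510-218629678) had 31.2 FPKM in CTRL and 19.9 FPKM in IR12, a log2 ratio of -0.62 that was lost on the TPM scale, where it was 0.004. In CTRL the FPKM of *Cpt1a* was 7.58 times that of *Plin2*, and in IR12 the FPKM of *Plin2* was 9.72 times that of *Cpt1a*, an order that rescaling a whole library does not change. The nearest gene was *Aldh5a1*, a mitochondrial dehydrogenase gene, with 30.9 FPKM in CTRL and 19.6 FPKM in IR12 at a distance of 0.03.

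*Pdk4* encodes a kinase that inhibits pyruvate dehydrogenase and is known to be induced by fasting. It had 0.47 FPKM in CTRL and 0.055 FPKM in IR12, under 1 in both libraries. The log2 ratio was -0.48 with a pseudocount of 1 and -1.88 with a pseudocount of 0.1, the latter past 2-fold. The smallest matching read numbers were 5 in CTRL and 1 in IR12. The ratio of FPKM, IR12 over CTRL, was then 0.12 with an exact 95% interval of 0.0025 to 1.05 at these read numbers, and a multiple of them gives the same ratio with a narrower interval.

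**Figure D3:**
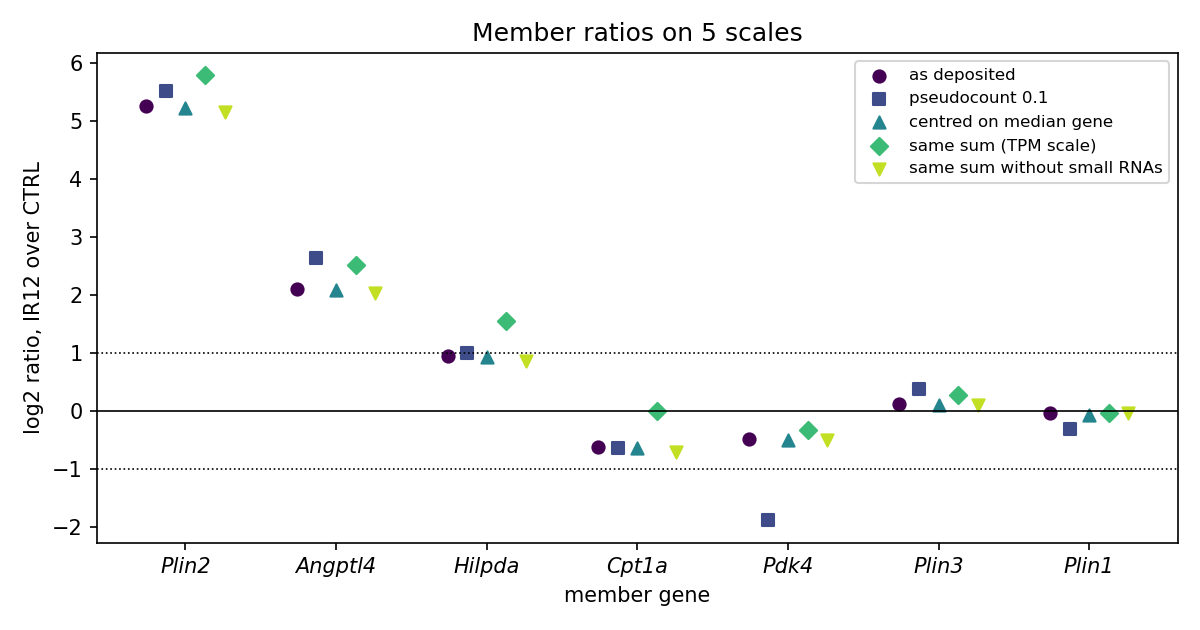
Log2 ratio of 7 members, IR12 over CTRL, as deposited, with a pseudocount of 0.1, centred on the median gene, on the TPM scale and with the same sum over genes other than small non-coding RNAs, with dotted lines at 2-fold. *Plin2* stays between 5.16 and 5.79 and *Angptl4* between 2.03 and 2.65, *Hilpda* crosses the upper line on 2 scales, *Cpt1a* reaches 0.004 on the TPM scale, and *Pdk4* passes the lower line only with the pseudocount of 0.1.

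The genes that surround the members in these pathways were described by 8 lists with 163 genes in the table. Of these 163 genes, 8 passed 2-fold upward and 6 passed it downward in IR12 as deposited, and 17 and 0 on the TPM scale. With a pseudocount of 0.1 there were 11 and 9, of which 9 and 7 had an FPKM of at least 1 in either library. The 8 and 6 as deposited are 5.93% and 4.44% of the 135 listed genes with an FPKM of at least 1 in either library, beside 6.56% and 6.12% of all 13599. The highest log2 ratio among them as deposited was 3.14 for *Mt2A*, and *Plin2* was above the highest pathway gene on each of the 5 scales. On the TPM scale all 6 falls were smaller than 2-fold, and the gene highest in CTRL of each list, lower in IR12 as deposited, was higher there. The median log2 ratio of all 13599 genes was 0.02, and each list median below is over the list's genes with an FPKM of at least 1 in either library.

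Of the 30 genes of lipid droplet assembly and turnover, 2 were at least 2-fold higher and 1 was at least 2-fold lower, with a median of -0.01 over 24 genes. On the TPM scale there were 3 higher and 0 lower. With a pseudocount of 0.1 there were 2 and 3, of which 2 and 2 had an FPKM of at least 1 in either library. *Gpat3*, which adds the first fatty acid to glycerol phosphate, had 1.03 FPKM in CTRL and 3.85 FPKM in IR12, with smallest matching read numbers of 5 and 32. *Agpat2*, which adds the next fatty acid, had 0.29 FPKM in CTRL and 1.97 FPKM in IR12, with smallest matching read numbers of 4 and 47. The true read numbers of *Gpat3* and *Agpat2* may be multiples of these. *Mgll*, the lipase that splits monoglycerides, had 27.6 FPKM in CTRL and 13.1 FPKM in IR12, a log2 ratio of -1.02 that was -0.41 on the TPM scale. *Dgat1* and *Dgat2*, which make triglyceride in the last step, were within 2-fold as deposited, with log2 ratios of 0.48 and 0.35. *Pnpla2*, the gene of the lipase that *Hilpda* inhibits, was listed at 0 in both libraries. *Acsl3* was the most abundant gene of the list, with 189 FPKM in CTRL and 130.4 FPKM in IR12.

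Of the 25 genes of fatty acid uptake, binding and activation in the table, 1 was at least 2-fold higher and 1 at least 2-fold lower (1 and 0 on the TPM scale), with a median of -0.06 over 14 genes. *Acsl5*, an acyl-CoA synthetase gene, had 4.12 FPKM in CTRL and 14.1 FPKM in IR12, a log2 ratio of 1.56. *Lpl*, the lipase that *Angptl4* inhibits, had 14.3 FPKM in CTRL and 5.13 FPKM in IR12, a log2 ratio of -1.32 that was -0.73 on the TPM scale. The inhibitor and its target thus differed in opposite directions between the libraries. *Acsl6* was the most abundant gene of the list, with 168 FPKM in CTRL and 140.2 FPKM in IR12.

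Of the 29 genes of the carnitine shuttle and beta-oxidation in the table, 1 was at least 2-fold higher and 0 were at least 2-fold lower (2 and 0 on the TPM scale), with a median of -0.01 over 25 genes. *Crot*, which makes medium-chain acylcarnitines in peroxisomes, had 94.3 FPKM in CTRL and 392 FPKM in IR12, a log2 ratio of 2.05. The isoforms beside *Cpt1a* were within 2-fold, with *Cpt1b* at 5.29 FPKM in CTRL and 7.55 FPKM in IR12 and *Cpt1c* at 4.88 and 4.83. The most abundant gene of the list in CTRL was *Acadm*, with 163 FPKM in CTRL and 135 FPKM in IR12.

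None of the 12 genes of the pyruvate dehydrogenase switch was past 2-fold as deposited, and their median was -0.08. The kinases that share the role of *Pdk4* were more abundant than it in both libraries, with *Pdk1* at 24.2 FPKM in CTRL and 14.7 FPKM in IR12, *Pdk2* at 9.66 and 7.03, and *Pdk3* at 28.6 and 22.5. *Mpc1*, a subunit of the mitochondrial pyruvate carrier, was the most abundant in CTRL, with 119 FPKM in CTRL and 83.8 FPKM in IR12.

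None of the 15 PPAR receptors, partners and coactivators was past 2-fold as deposited, while 3 were higher past 2-fold on the TPM scale and 1 with a pseudocount of 0.1, and their median was -0.16 over 14 genes. *Ppara* had 29.2 FPKM in CTRL and 24.2 FPKM in IR12. *Ppard* had 1.44 FPKM in CTRL and 3.72 FPKM in IR12, a log2 ratio of 0.95, and *Pparg* was below 1 in both, with 0.20 and 0.24. The most abundant gene in CTRL was the coactivator *Ncoa1*, with 79.1 FPKM in CTRL and 70.7 FPKM in IR12.

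Of the 19 genes of fatty acid synthesis in the table, 1 was at least 2-fold higher and 2 were at least 2-fold lower (5 and 0 on the TPM scale), with a median of -0.12 over 16 genes. *Acss2*, which makes acetyl-CoA from acetate, had 21.7 FPKM in CTRL and 86.5 FPKM in IR12, a log2 ratio of 1.95. *Scd2*, a desaturase gene, had 214 FPKM in CTRL and 83.1 FPKM in IR12, a log2 ratio of -1.36 that was -0.71 on the TPM scale. *Thrsp* had a log2 ratio of -1.02 that was -0.44 on the TPM scale. *Elovl4*, an elongase of very long fatty acids in photoreceptors, was the most abundant gene, with 623 FPKM in CTRL and 479 FPKM in IR12.

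HIF targets were listed because *Plin2*, *Angptl4* and *Hilpda* respond to hypoxia in other tissues. Of the 18 HIF target genes in the table, 0 were at least 2-fold higher and 2 at least 2-fold lower in IR12, and the median over 17 genes was -0.42 as deposited and 0.22 on the TPM scale. *Bnip3*, a mitophagy receptor gene, had 130.1 FPKM in CTRL and 49.0 FPKM in IR12, a log2 ratio of -1.39 that was -0.75 on the TPM scale. *Hk2*, a hexokinase gene, had 141 FPKM in CTRL and 54.8 FPKM in IR12, a log2 ratio of -1.35 that was -0.71 on the TPM scale. *Pgk1* was the most abundant gene in CTRL, with 652 FPKM in CTRL and 474 FPKM in IR12.

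Glucocorticoids are known to induce *Angptl4* and *Pdk4* in other tissues. Of 15 glucocorticoid-responsive genes, 3 were at least 2-fold higher and 0 at least 2-fold lower, and the median over 13 genes was 0.02. The 3 genes were *Mt2A*, a metallothionein gene, at 2.53 FPKM in CTRL and 30.0 FPKM in IR12, *Lcn2*, at 0.47 and 11.8, and *Cebpd*, at 0.83 and 7.55. All 3 are also known to respond to inflammation. *Fkbp5* and *Tsc22d3*, which glucocorticoids are known to induce in many tissues, were within 2-fold as deposited, with log2 ratios of 0.41 and -0.64. The part of glucocorticoids and of inflammation in the values of these genes was not tested. *Sgk1* was the most abundant gene, with 88.6 FPKM in CTRL and 85.7 FPKM in IR12.

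**Figure D4:**
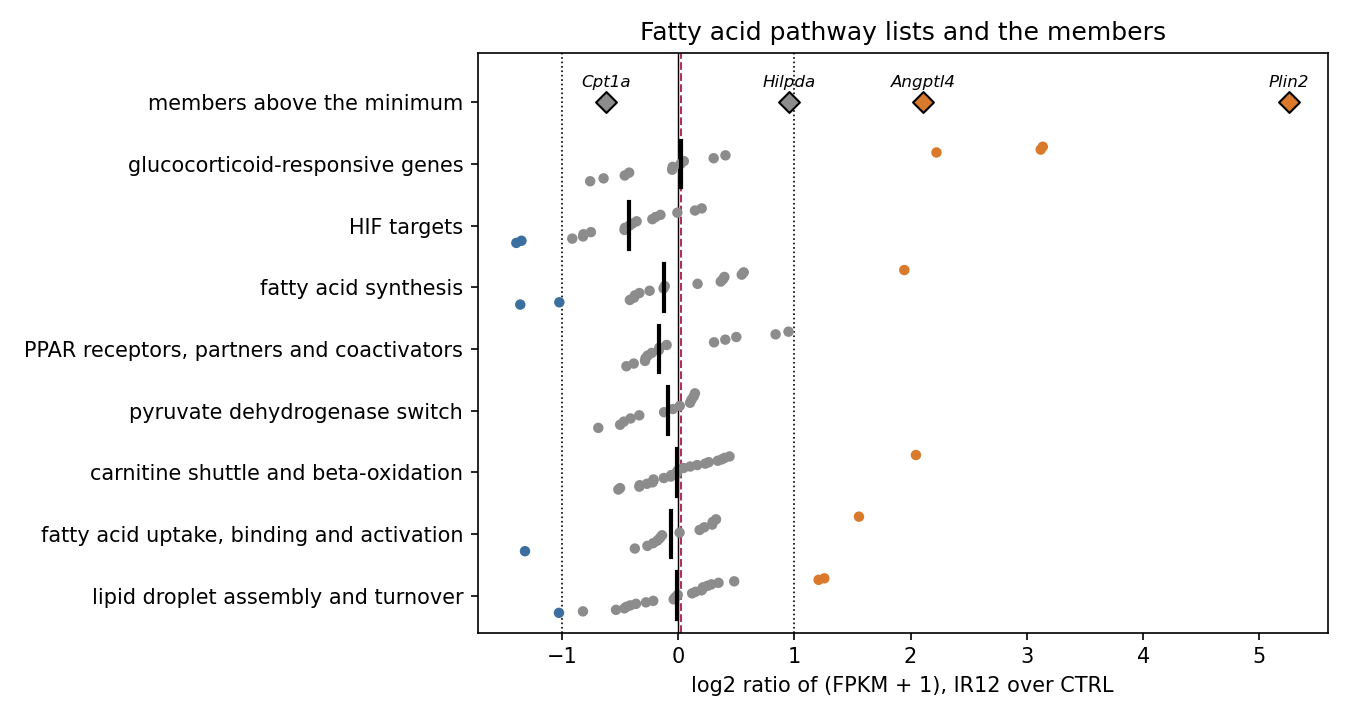
Log2 ratio of (FPKM + 1), IR12 over CTRL, for the genes of 8 pathway lists (dots) and the 4 members (diamonds) with an FPKM of at least 1 in either library, with each list's median as a black bar, dotted lines at 2-fold and the median of 13599 genes as a dashed line. Orange marks genes at least 2-fold higher and blue those at least 2-fold lower, and *Plin2* at 5.25 lies to the right of each listed gene.

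Marker lists of several cell types also differed between the 2 libraries. Of 12 macrophage and neutrophil genes, 8 were at least 2-fold higher and 0 lower past 2-fold, and their summed FPKM was 14.8 in CTRL and 148 in IR12. The most abundant was *Lyz2*, with 9.73 FPKM in CTRL and 76.9 FPKM in IR12, and *S100a8*, a neutrophil gene, was listed at 0 in CTRL and had an FPKM of 12.8 in IR12. *Gpnmb*, a gene of lipid-laden macrophages among other cells, had 2.22 FPKM in CTRL and 17.6 FPKM in IR12.

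Of 9 Müller glia genes, 8 were at least 2-fold lower as deposited and 5 on the TPM scale, and their summed FPKM was 1632 in CTRL and 575 in IR12. The most abundant in CTRL was *Glul*, with 754 FPKM in CTRL and 126 FPKM in IR12. *Vim*, a filament gene that injured Müller glia are known to raise, had 121 FPKM in CTRL and 221 FPKM in IR12. All 8 lens genes were at least 2-fold lower as deposited, 7 of them on the TPM scale, with a summed FPKM of 1394 in CTRL and 164 in IR12. *Cryaa* was the most abundant of them, at 1118 in CTRL and 124 in IR12. The part of blood-derived cells, of Müller glia and of lens tissue in the values of *Plin2*, *Angptl4* and *Hilpda* was not tested.

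Fat is the tissue in which several perilipins are best known. None of 9 adipocyte genes was past 2-fold as deposited, and their summed FPKM was 2.72 in CTRL and 2.83 in IR12, with *Fabp4* the most abundant at 1.43 and 1.45. The defining genes *Lep* and *Cfd* were listed at 0 in both libraries, which in this table does not show absence, and *Adipoq* had an FPKM of 0.051 in CTRL and was listed at 0 in IR12. *Gapdh*, a common reference gene, had 716 FPKM in CTRL and 690.1 FPKM in IR12, a log2 ratio of -0.05 as deposited that was 0.59 on the TPM scale. *Actb*, another common reference gene, had 260 FPKM in CTRL and 537 FPKM in IR12, a log2 ratio of 1.04 as deposited.

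**Figure D5:**
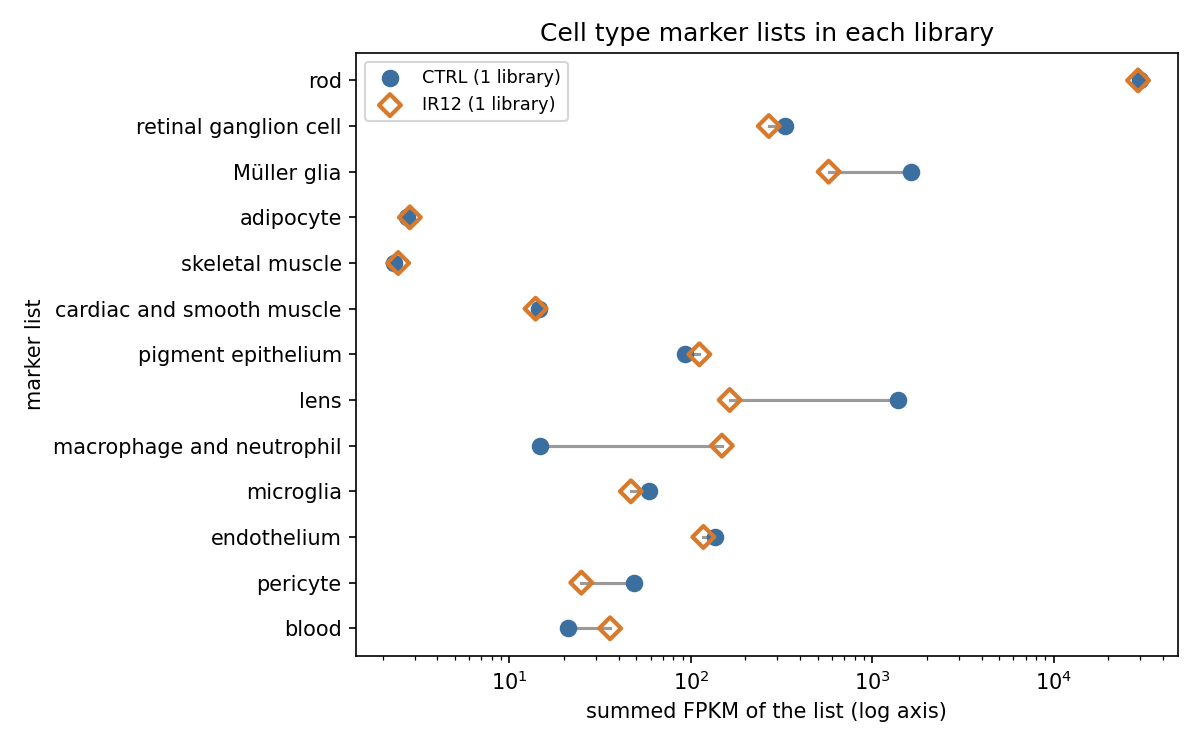
Summed FPKM on a log axis of 13 cell type marker lists in CTRL (filled circles) and IR12 (open diamonds), 1 library each. The macrophage and neutrophil list goes from 14.8 to 148, the Müller glia list from 1632 to 575 and the lens list from 1394 to 164, while rod and adipocyte lists lie close together.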

How the data were processed

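RNA was measured in 2 retina libraries, CTRL and IR12, each a group of its own by its sample title. The authors shortened the reads and deposited FPKM per gene. The submitters' processing notes name STAR 2.5.2b, Cuffdiff 2.2.0 and the build rn6, and the annotation behind the FPKM is not stated.

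The deposited FPKM was used without further scaling. Changes are log2 ratios of (FPKM + 1), and a gene counted as past 2-fold at a log2 ratio of at least 1 in size, over genes reaching an FPKM of 1 in CTRL or IR12, a minimum not applied to the members. Of listed genes whose symbol has several rows, the row with the highest mean was kept. Counts over all genes kept each row, so a symbol such as *Atp8a1* can enter more than once. Small non-coding RNAs were recognised by symbol. Relative depth is the ratio of the lowest repeated FPKM among genes of 1 locus length under 1500 bp. Whole reads were searched up to 100 per library within 0.001%, with exact Clopper-Pearson 95% intervals, a step chosen after seeing the data. Printed starts are 1 above those listed, which are counted from 0.

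The members and lists were chosen with earlier results of these data known. The rule named the members, *Gapdh*, and of each pathway list the genes past 2-fold (at most 4 rises and 4 falls) and the gene highest in CTRL. For each member reaching an FPKM of 1 it named the gene nearest by Euclidean distance over both log2(FPKM + 1) values. Small non-coding RNAs and genes with clone or placeholder symbols were left out of that search. Of each marker list the rule named the most abundant gene, genes at 0 and genes past 2-fold, but only some of these are printed. Those printed, such as *Lyz2*, *S100a8* and *Gpnmb* among the macrophage and neutrophil genes, are therefore a choice. Genes outside this rule, among them *Actb*, *Vim*, *Adipoq*, *Pnpla2*, the PPAR and *Pdk* genes and the chromosome 9 neighbours, were picked with their values in view.

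Member ratios, counts past 2-fold and list medians were recomputed with a pseudocount of 0.1, after centring on the median gene and with equal FPKM sums with and without small non-coding RNAs. Gene counts and list medians were recomputed with a minimum FPKM of 5 or none, member and gene counts with a fold of 1.5, and relative depth with locus lengths under 500 bp. Ranks and nearest genes have no alternative. Promoter windows are those of RefSeq on GRCr8. Procedures were tested on simulated data. The tools were matplotlib 3.10.9, scipy 1.17.1, pandas 2.3.3 and numpy 2.4.6 under Python 3.11.15.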

Additional observations from a re-analysis of the deposited data

How the results depend on the processing

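Each group has 1 library, so none could be left out, and no paired analysis was possible because the groups hold 1 library each. *Plin2* and *Angptl4* stayed at least 2-fold higher in IR12 in the 4 alternatives run for their ratios. With a pseudocount of 0.1, which widens ratios of low genes, the log2 ratio was 1.0003 for *Hilpda* and -1.8834 for *Pdk4*, and 1 member, *Pdk4*, was at least 2-fold lower, though under an FPKM of 1 in both libraries. On the TPM scale, which raises IR12 against CTRL, *Hilpda* had 1.5617 and *Cpt1a* 0.004, and 2817 genes were at least 2-fold higher against 436 lower, 86.6% higher compared with 51.7% as deposited. On that scale the list medians were 0.5485 for droplet assembly and turnover, 0.4698 for uptake, 0.55 for beta-oxidation, 0.5437 for pyruvate dehydrogenase, 0.412 for PPARs, 0.5127 for synthesis, 0.2165 for HIF targets and 0.5927 for glucocorticoid-responsive genes. The glucocorticoid median, 0.0215 as deposited, was -0.0037 when centred and -0.0629 with equal sums without small non-coding RNAs. With a minimum FPKM of 5 the medians were 0.0442 for uptake and 0.0478 for beta-oxidation, from fewer genes. A fold of 1.5 gave 3 members higher and 1 lower, with 2007 genes higher and 1861 lower. The lower member was *Cpt1a*, with a log2 ratio of -0.6184 as deposited. From whole reads without a pseudocount, an alternative added after seeing the data, the log2 ratio was 1.0054 for *Hilpda* and -3.0942 for *Pdk4*. The relative depth was 1.71 also with locus lengths under 500 bp. The counting intervals of *Plin3* and *Pdk4* include 1 at the smallest matching read numbers, and multiples of these would narrow them.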

Other observations

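Of 7 endothelial genes in the table, 1 was at least 2-fold higher and 0 lower, and their summed FPKM was 135 in CTRL and 117 in IR12. The endothelial genes differed among themselves, since *Flt1* had 12.3 FPKM in CTRL and 32.3 FPKM in IR12 while *Kdr*, the most abundant, had 107.6 in CTRL and 66.8 in IR12. Of 6 pericyte genes, *Rgs5* was at least 2-fold lower as deposited, with 38.6 FPKM in CTRL and 17.6 FPKM in IR12, but none was past 2-fold on the TPM scale, and the summed FPKM of the list was 48.4 in CTRL and 24.9 in IR12. Of 8 microglia genes, *Gpr34* was at least 2-fold lower, with 4.56 FPKM in CTRL and 0.76 FPKM in IR12, and the summed FPKM of the list was 58.6 in CTRL and 46.7 in IR12.

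Of 8 pigment epithelium genes, *Rpe65* was at least 2-fold lower as deposited, with 11.1 FPKM in CTRL and 4.88 FPKM in IR12, and *Ttr* was the most abundant, with 61.8 in CTRL and 87.4 in IR12. Of 9 retinal ganglion cell genes, *Pou4f2* was at least 2-fold lower as deposited, with 3.41 FPKM in CTRL and 1.06 FPKM in IR12, and *Nefl* was the most abundant, with 132 in CTRL and 88.8 in IR12. The summed FPKM of 7 skeletal muscle genes was 2.30 in CTRL and 2.44 in IR12, and that of 8 cardiac and smooth muscle genes was 14.6 in CTRL and 13.9 in IR12, with *Des* at least 2-fold higher at 0.30 in CTRL and 1.81 in IR12. *Hbb*, the most abundant of 4 blood genes, had 20.4 FPKM in CTRL and 35.1 FPKM in IR12.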
